A study of Mus musculus with 6 samples.

Results

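The acid-base genes of intercalated cells were followed in mouse kidney through 9 genes chosen for their role: Atp6v1b1, Atp6v0a4, Atp6v1g3 and Atp6v0d2 of the proton pump, the anion exchangers Slc4a1 and Slc26a4, the ammonia channel Rhcg, the carbonic anhydrase Car2 and the transcription factor Foxi1. Every probe set whose annotation gave only 1 of these symbols was taken. This gave 11 probe sets for 8 genes, out of 45037 probe sets and 18193 genes. No probe set was annotated to Atp6v1g3, which is not analysed here. The 3 tested mice carried and expressed the soluble intracellular domain of megalin (ICD), the released tail of the endocytic receptor of the proximal tubule, in heterozygous form. The 3 controls were wild type littermates (WT). All animals were males aged 10 weeks, each a separate biological replicate with its own array of whole kidney RNA. The labels do not name the strain, the locus of the introduced allele, the promoter that drives it or the cells that make the domain.

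Intercalated cells are scattered among the principal cells of the connecting tubule and collecting duct and adjust the acid and base content of urine. A vacuolar proton pump (V-ATPase) sits in their membrane, built from a cytosolic V1 part that splits ATP and a membrane V0 part that carries protons. Several of its subunits occur in these cells as special forms of subunits found in every cell. Type A cells secrete acid: the pump faces the urine and Slc4a1 (band 3 or AE1, also the anion exchanger of red blood cells) returns bicarbonate to the blood. Type B cells secrete base, with Slc26a4 (pendrin) exchanging chloride for bicarbonate at the urinary side. FOXI1 is the forkhead factor on which the identity of these cells depends in mouse.

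The upstream regions of a pump subunit and of the type B exchanger are shown because Foxi1, a factor that binds DNA, is among the genes measured. They are the 250 bases before the gene start from RefSeq (GRCm38.p6), for Atp6v1b1 at chr6:83742767-83743016 on the plus strand and for Slc26a4 at chr12:31559985-31560234 on the minus strand, and capitals mark matches to the forkhead letters TGTTTAC on either strand.
Atp6v1b1: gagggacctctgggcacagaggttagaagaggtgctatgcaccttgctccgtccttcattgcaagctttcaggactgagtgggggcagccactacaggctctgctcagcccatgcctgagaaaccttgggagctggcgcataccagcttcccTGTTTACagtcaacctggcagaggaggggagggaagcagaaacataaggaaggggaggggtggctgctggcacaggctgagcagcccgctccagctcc
Slc26a4: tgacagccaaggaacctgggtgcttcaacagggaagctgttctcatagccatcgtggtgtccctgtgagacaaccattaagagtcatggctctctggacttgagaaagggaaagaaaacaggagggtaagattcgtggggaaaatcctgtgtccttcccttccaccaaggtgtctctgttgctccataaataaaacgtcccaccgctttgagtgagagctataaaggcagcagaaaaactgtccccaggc
The letters occurred once in the Atp6v1b1 window, beginning 98 bases before the gene start, and in 1 of the 6 windows matched to the 9 genes (Atp6v0a4, Atp6v1b1, Atp6v1g3, Foxi1, Rhcg and Slc26a4). Among 32851 RefSeq windows of the same length 3.17% held them. These letters were chosen after other forkhead letters had been counted in the same windows, and a match is a description of the sequence only.

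The values are RMA log2 intensities, on which 1 unit is a doubling, and levels are compared only within a probe set. Array medians lay between 6.62 and 6.66, and pairs of arrays correlated at 0.995 to 0.997. The kidney markers Umod, Lrp2 and Aqp2 were bright on every array, at no less than 14.32, 12.77 and 10.71 for their brightest probe sets. The locus of the allele is not given, nor is the part of Lrp2, megalin's gene, that each of its probe sets matches. These probe sets may therefore not detect the allele, and they check the genotype labels at most in part. The brightest, 1452320_at, differed by 0.0079 (interval -0.17 to 0.18). A second bright one, 1427133_s_at, read 12.25, 12.37 and 12.26 in ICD kidneys, against 13.01, 12.97 and 12.13 in WT kidneys, a difference of -0.41 (interval -0.89 to 0.068, limma adjusted p = 0.891) in which WT 3 lay below all ICD arrays. The dim 1445901_at differed by 0.12 (interval -0.25 to 0.49). The array labelled WT 3 stood apart in some proximal tubule markers. The mean deviation of their list was -0.67 on it and 0.040 to 0.23 on the other arrays. Slc5a12 read 4.12 on WT 3 and 9.27 to 10.47 elsewhere at its brightest probe set. The brightest probe sets of Lrp2 (12.78) and Aqp1 (12.73) read on WT 3 within the range of the other arrays. All 8 measured genes of the intercalated cell had a brightest probe set above the median level of 6.64 over all probe sets.

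None of the 8 genes passed the test between ICD and WT kidneys. In limma 0 of the 11 probe sets passed (adjusted p 0.887 to 0.998), none had an unadjusted p under 0.05, and ICD and WT arrays overlapped for each of them. Over all 45037 probe sets 0% passed the adjusted threshold, 5.86% had an unadjusted p under 0.05 (3.61% higher and 2.26% lower in ICD) and in 10.5% the groups did not overlap. Of the 8 genes, 5 lay higher and 3 lower in ICD kidneys, with a median difference of 0.029, beside -0.012 over all genes. The confidence intervals of the brightest probe sets reached 0.16 to 0.25 to either side, and together they span fold changes of 0.741 to 1.25. With 3 animals a group, differences of any size within a gene's own interval remain possible. The bounds are not limits of detection. In whole kidney RNA, fewer cells of a type and less RNA per cell cannot be told apart.

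**Figure D1:**
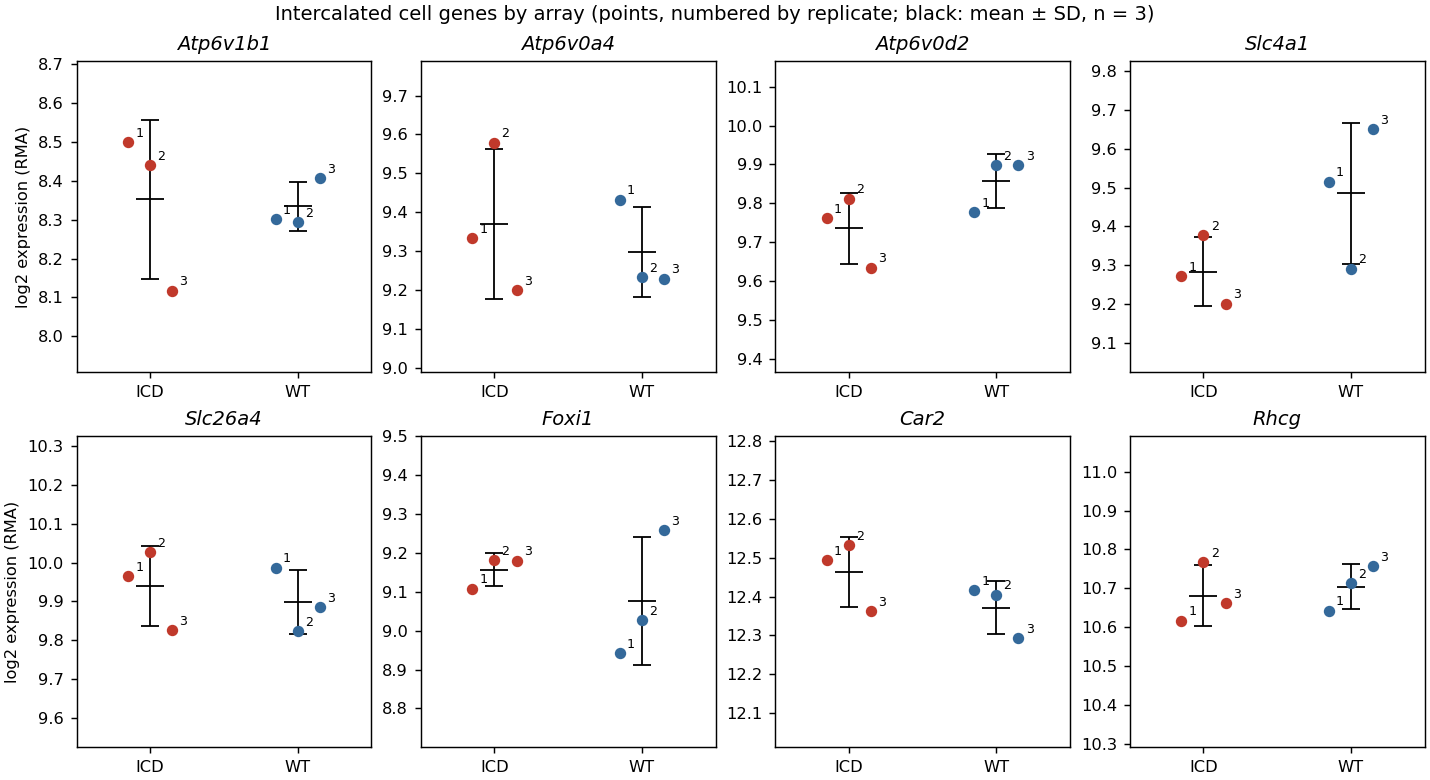
Log2 expression (y axis) of the brightest probe set of each of the 8 measured genes in 3 ICD and 3 WT kidneys (x axis), with every array as a numbered point and the mean ± SD in black. Each panel spans the same 0.8 log2 units, and the points of the groups overlap in all 8 panels.

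Among pump subunits, Atp6v1b1 encodes the B1 subunit of the V1 part, which occurs in intercalated cells and in the inner ear and is mutated in human distal renal tubular acidosis with deafness. Its probe set 1419373_at read 8.50, 8.44 and 8.12 in ICD kidneys 1 to 3, against 8.30, 8.29 and 8.41 in WT kidneys 1 to 3. ICD 1 and ICD 2 lay above all WT arrays and ICD 3 below all of them. The means were 8.35 ± 0.21 in ICD and 8.33 ± 0.063 in WT kidneys (SD, n = 3 each), a difference of 0.018 with a limma interval of -0.22 to 0.26 (adjusted p = 0.997).

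Atp6v0a4 encodes a4, the large membrane subunit of the V0 part in intercalated and proximal tubule cells, also mutated in human distal renal tubular acidosis. Its probe set 1422030_at read 9.33, 9.58 and 9.20 in ICD kidneys, against 9.43, 9.23 and 9.23 in WT kidneys. The highest and the lowest array were both ICD, so that the WT values lay within the ICD range. The difference was 0.073 (interval -0.18 to 0.32, limma adjusted p = 0.982), a fold of 1.05 with bounds of 0.885 and 1.25.

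Atp6v0d2 encodes d2, a subunit that links the membrane part to the central stalk in kidney and osteoclasts, and it was measured by 2 probe sets. The brighter one, 1434798_at, read 9.76, 9.81 and 9.63 in ICD kidneys, against 9.78, 9.90 and 9.90 in WT kidneys. ICD 1 and ICD 3 lay below all WT arrays, while ICD 2 lay above WT 1. The difference was -0.12 (interval -0.30 to 0.052, limma adjusted p = 0.929). At the other probe set, 1444176_at, ICD kidneys read 9.06, 9.16 and 8.89 and WT kidneys 9.07, 8.94 and 9.16, and the difference was -0.017 (interval -0.23 to 0.19).

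Other forms of the pump subunits did not pass the test either. Atp6v1b2, the B2 partner of B1, differed by 0.011 (interval -0.14 to 0.16), Atp6v0a1, the a1 form, by -0.023 (interval -0.19 to 0.14), and Atp6v0d1, the d1 form, by -0.066 (interval -0.24 to 0.10). Atp6v1g1, the widespread G subunit, differed by -0.047 (interval -0.30 to 0.21), and Atp6v1c2, a C subunit form found in kidney and lung, by -0.011 (interval -0.22 to 0.20). Of the 20 measured genes of the other V-ATPase subunits and accessory proteins, 7 lay higher and 13 lower in ICD kidneys with a median difference of -0.020. None passed in limma (smallest adjusted p 0.854) and none had an unadjusted p under 0.05. In 1 of the 20 the groups did not overlap, beside 10.5% of all probe sets.

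That gene was Atp6v0e2, a form of the small e subunit, which read 10.16, 10.36 and 10.21 in ICD kidneys, against 10.08, 10.14 and 9.92 in WT kidneys. Its difference of 0.20 (interval -0.0034 to 0.39, limma adjusted p = 0.854) was the highest among the 18 brighter genes of the list, followed by Atp6v1c1, the common C subunit, at 0.093, and Atp6ap2, the prorenin receptor associated with the pump, at 0.038. The lowest were Atp6v1a, the catalytic A subunit, at -0.12, Atp6v0a2, the a2 form of the Golgi, at -0.077, and Atp6v0d1. A second bright probe set of Atp6v1a differed by 0.032. The other probe sets of Atp6v0a2 differed by 0.037 and -0.13, and those of Atp6ap2 by -0.018 and 0.027. These genes are expressed across the nephron.

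**Figure D2:**
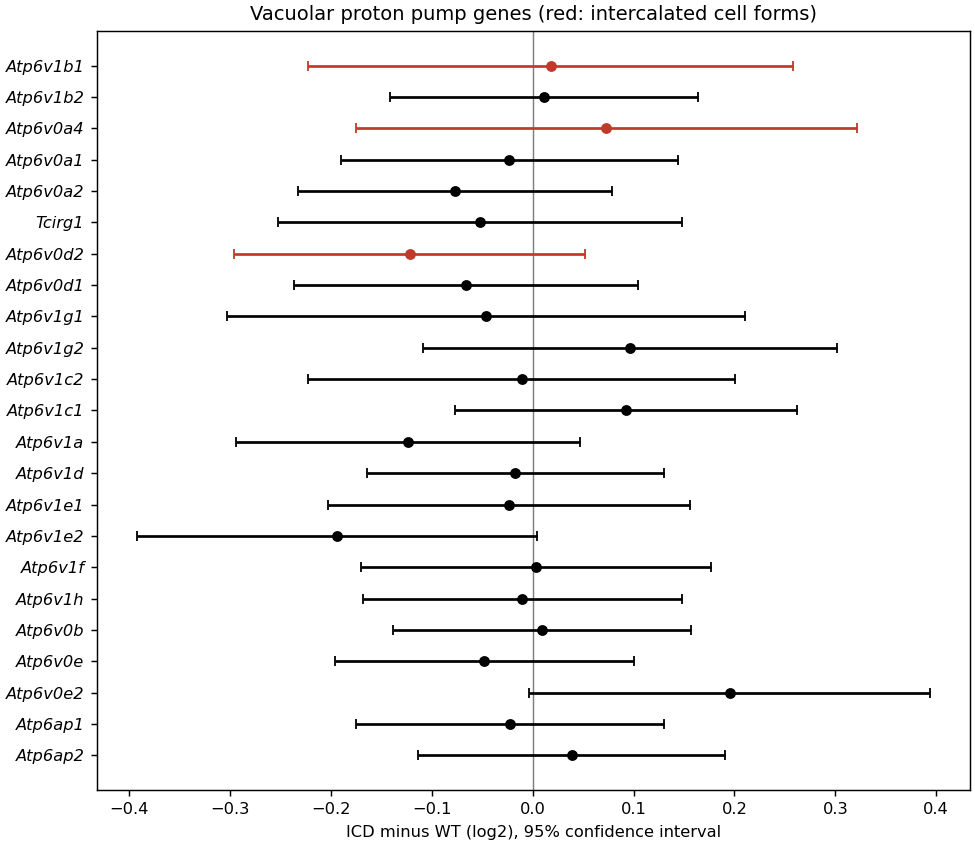
Differences (x axis, ICD minus WT on the log2 scale) of the brightest probe set of 23 proton pump genes (y axis), as points with limma's 95% confidence intervals, 3 arrays per group. The 3 intercalated cell forms in red (0.018, 0.073 and -0.12) lie among the other pump genes in black, and every interval crosses 0.

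Slc4a1 had the largest difference of the 8 genes. Its brightest probe set 1416464_at read 9.27, 9.38 and 9.20 in ICD kidneys, against 9.52, 9.29 and 9.65 in WT kidneys. ICD 1 and ICD 3 lay below all WT arrays, and ICD 2 lay above WT 2. The means were 9.28 ± 0.089 in ICD and 9.49 ± 0.18 in WT kidneys (SD, n = 3 each), a difference of -0.20 (interval -0.43 to 0.029, limma adjusted p = 0.887, unadjusted p = 0.0788). This corresponds to a fold of 0.869, with bounds of 0.741 and 1.02.

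A second Slc4a1 probe set, 1434502_x_at, whose suffix marks probes that may also match other transcripts, read 8.93, 9.11 and 8.57 in ICD kidneys, against 8.93, 9.07 and 9.20 in WT kidneys. Its difference of -0.19 (interval -0.51 to 0.12) was of like size, with ICD 3 as the lowest array. In fits without 1 array it ran from -0.31 without ICD 2 to -0.042 without ICD 3. That of 1416464_at ran from -0.30 without WT 2 to -0.12 without WT 3, and was -0.16 without ICD 3. The third probe set, 1431743_a_at, was dim (4.59 to 4.91 on all arrays) and differed by 0.012 (interval -0.21 to 0.24).

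Band 3 is also made in red blood cell precursors, and some probe sets for transcripts of these cells also read lower in ICD kidneys. Alas2, the first enzyme of heme synthesis in red cells, read 8.22, 8.38 and 7.76 in ICD kidneys, against 8.55, 8.40 and 8.58 in WT kidneys. All ICD arrays lay below all WT arrays, ICD 3 was lowest and WT 3 highest, as for both bright Slc4a1 probe sets, and the difference was -0.39 (interval -0.72 to -0.057, limma adjusted p = 0.8). The brighter beta globin probe set of Hbb-b2 differed by -0.024 (interval -0.22 to 0.17). The dimmer, 1427866_x_at, whose suffix again marks probes that may match other transcripts, differed by -0.51 (interval -0.98 to -0.049, limma adjusted p = 0.831). Hba-a2, an alpha globin gene with a dim probe set, differed the other way, by 0.22 (interval 0.044 to 0.40, adjusted p = 0.762). Of 15 listed red cell markers 10 were measured, and the beta globin genes Hbb-bs, Hbb-bt and Hbb-b1 were not among them. Of these 10 markers, 3 lay higher and 7 lower in ICD kidneys, with a median of -0.047. Only 3 of the 10 reached the median level of all probe sets, namely Alas2, Hbb-b2 and Klf1, and their median was -0.024. Klf1 differed by 0.0091 (interval -0.16 to 0.18). Rhag and Kel were among the dim ones. The summed log2 level of the 10 markers ran from 59.9 to 60.9 in ICD and from 60.8 to 61.3 in WT arrays. The part of blood in the Slc4a1 values was not tested.

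Slc26a4, the type B exchanger, was close to equal in the groups. Its probe set 1419725_at read 9.96, 10.03 and 9.83 in ICD kidneys, against 9.99, 9.82 and 9.89 in WT kidneys, and the arrays of the groups were interleaved. The difference was 0.041 (interval -0.14 to 0.22, limma adjusted p = 0.989), a fold of 1.03 with bounds of 0.906 and 1.17.

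The 2 exchangers were then set against each other within each array, as the level of Slc4a1 minus that of Slc26a4 after each was centred on its mean over the 6 arrays. This value was -0.16, -0.12 and -0.090 in ICD kidneys, against 0.063, 0.0016 and 0.30 in WT kidneys, all ICD arrays lying below all WT arrays. The difference of -0.24 had an exact 2-sided permutation p of 0.1, the smallest that 3 against 3 arrays allow, so the design cannot take it past 0.05. It was not the same at every probe set: with 1434502_x_at the difference was -0.23 with overlapping groups (exact p = 0.3), and with the dim probe set -0.029 (exact p = 0.9). With Aqp6, a water channel of type A cells, in place of Slc4a1 it was -0.045 (exact p = 0.7). The last 3 contrasts were added after the values were seen. Adjusted over these 4 contrasts, the exact p-values were 0.4, 0.6, 0.9 and 0.9.

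**Figure D3:**
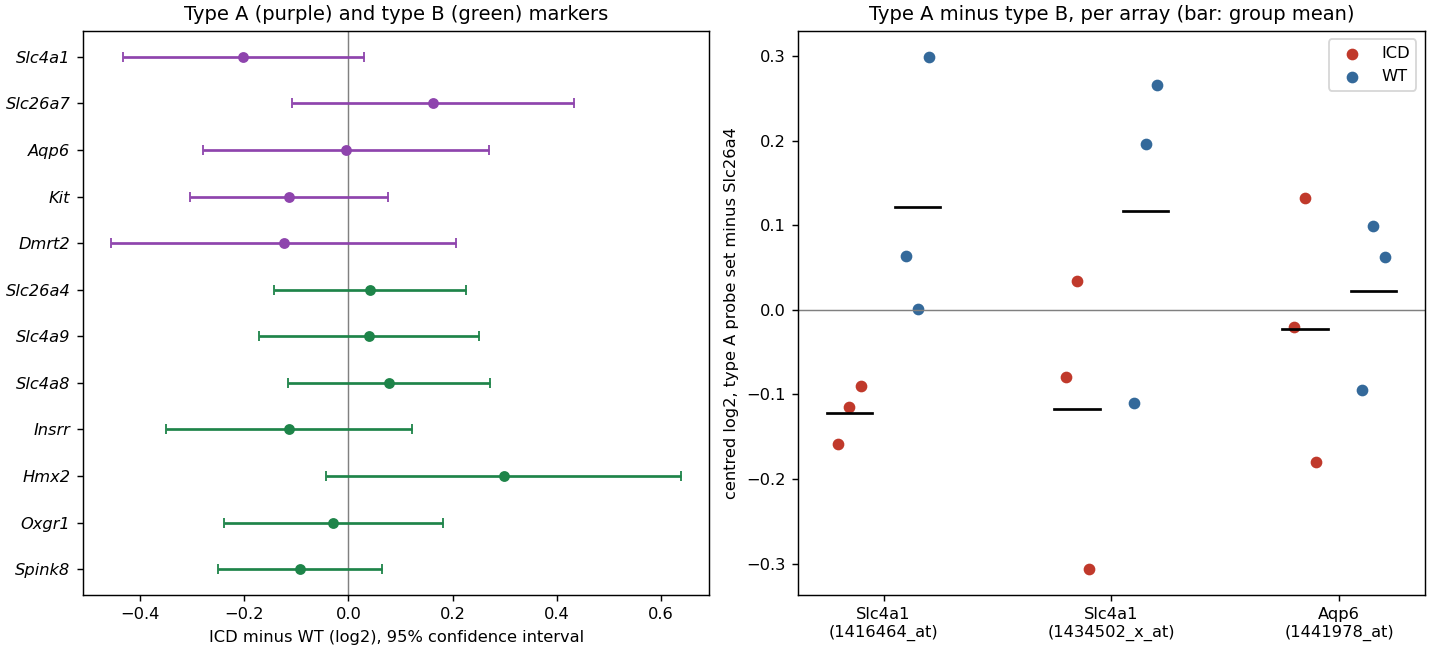
Left, differences (ICD minus WT, log2, with limma's 95% confidence intervals) of type A markers in purple and type B markers in green. Right, centred log2 value of a type A probe set minus that of Slc26a4 (y axis) for each ICD and WT array, with the group mean as a bar: the groups are apart for 1416464_at of Slc4a1 and overlap for 1434502_x_at and for Aqp6.

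No other marker of either cell type passed the test. Of 5 type A markers 1 lay higher and 4 lower in ICD kidneys, with a median of -0.11, and without ICD 3 the median was 0.063. Slc26a7, a chloride/bicarbonate exchanger, differed by 0.16 at its brighter and by -0.31 (interval -0.58 to -0.037, limma adjusted p = 0.816) at its dimmer probe set, both below the median level. Aqp6 differed by -0.0043 at its brightest probe set and by -0.21 (interval -0.39 to -0.032, adjusted p = 0.8) at 1459982_a_at, the only 1 of its 4 probe sets whose groups did not overlap. Kit, a receptor tyrosine kinase also found in mast cells, differed by -0.11 at its brighter and by 0.13 at its dimmer probe set. Dmrt2, a transcription factor whose probe set was also below the median level, differed by -0.12 (interval -0.45 to 0.21). It read 5.41 on ICD 3 and 5.88 to 6.03 on the other arrays.

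Of 7 type B markers 4 lay higher and 3 lower, with a median of 0.039, which was -0.016 without ICD 2 and -0.029 with each gene's probe sets averaged. Slc4a9, the anion exchanger AE4, differed by 0.039 (interval -0.17 to 0.25), and Slc4a8, a sodium-driven chloride/bicarbonate exchanger, by 0.078 (interval -0.12 to 0.27) at its brightest probe set. Of the 4 other Slc4a8 probe sets 3 differed the other way, by -0.18, -0.10 and -0.19, and 1 differed by 0.047. Hmx2, a homeobox factor, read 7.37, 7.60 and 6.94 in ICD kidneys, against 7.03, 6.96 and 7.03 in WT kidneys: ICD 1 and ICD 2 lay above all WT arrays and ICD 3 below them, and the difference was 0.30 (interval -0.043 to 0.64, limma adjusted p = 0.887). Insrr, a receptor activated by alkali, differed by -0.11, Oxgr1, the receptor for oxoglutarate, by -0.029, and Spink8, a protease inhibitor, by -0.093. No marker of either type passed in limma or had an unadjusted p under 0.05 at its brightest probe set.

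Foxi1, the transcription factor of the lineage, read 9.11, 9.18 and 9.18 in ICD kidneys, against 8.94, 9.03 and 9.26 in WT kidneys (1449458_at). The ICD arrays lay close together, inside the range of the WT arrays, with an SD of 0.042 in ICD and 0.16 in WT kidneys. The difference was 0.081 (interval -0.13 to 0.29, limma adjusted p = 0.977). Without WT 1 it was 0.014 and without WT 3 it was 0.17.

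Car2 encodes the cytosolic carbonic anhydrase that supplies protons and bicarbonate in both types of intercalated cell, and also in proximal tubule, principal cells and red blood cells. Its probe set 1448752_at read 12.49, 12.53 and 12.36 in ICD kidneys, against 12.42, 12.40 and 12.29 in WT kidneys. ICD 1 and ICD 2 lay above all WT arrays, and ICD 3 lay between them. The difference was 0.092 (interval -0.081 to 0.26, limma adjusted p = 0.952), a fold of 1.07 with bounds of 0.946 and 1.20.

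Rhcg, the channel through which ammonia leaves intercalated and principal cells, varied least of the 8 genes, with a within-group SD of 0.068. Its probe set 1417362_at read 10.62, 10.77 and 10.66 in ICD kidneys, against 10.64, 10.71 and 10.76 in WT kidneys, fully interleaved. The difference was -0.022 (interval -0.19 to 0.14, limma adjusted p = 0.993).

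**Figure D4:**
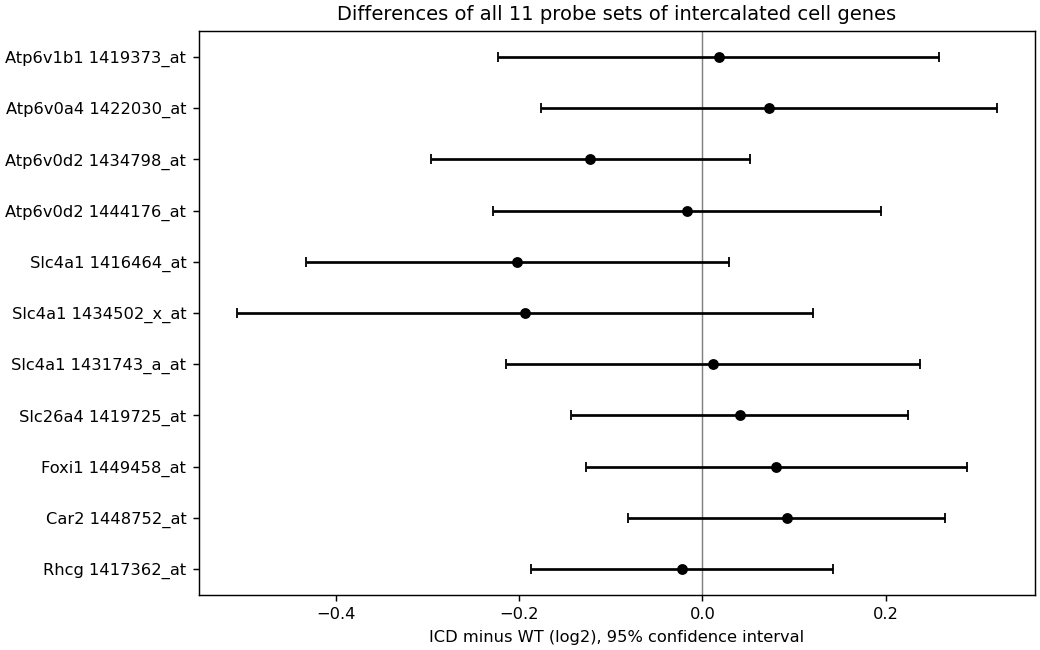
Differences (x axis, ICD minus WT on the log2 scale) of all 11 probe sets of the 8 measured genes (y axis), as points with limma's 95% confidence intervals, 3 arrays per group. Every interval crosses 0, and the 2 bright Slc4a1 probe sets, at -0.20 and -0.19, lie farthest from it.

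The 8 genes also varied between animals of 1 genotype. ICD 2 was the highest array for 4 of the 8 genes and ICD 3 the lowest for 4, although both carry the same genotype. The mean deviation of the 8 genes from their own means was 0.0056, 0.089 and -0.10 in ICD kidneys, against 0.0011, -0.040 and 0.047 in WT kidneys. ICD 3 was also lowest for the type A list (-0.24, the other arrays -0.0041 to 0.093) and the type B list (-0.13, the others -0.048 to 0.13). The first list includes the member Slc4a1 and the second the member Slc26a4. The within-group SD of the 8 genes had a median of 0.11, beside 0.097 for all probe sets at or above the median level. Among 4611 other genes that were bright and variable enough, the profiles most like this mean over the 6 arrays were those of Ahcy (Pearson correlation 0.989), Gspt2 (0.985) and Nudt16 (0.976). They were picked as the highest of that many, so their size carries no test.

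**Figure D5:**
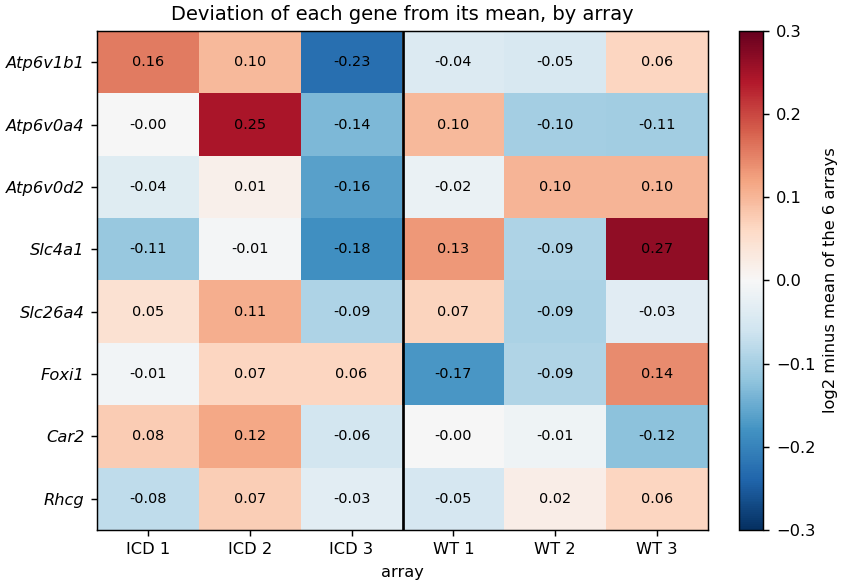
Deviation of each of the 8 genes (rows) from its mean over the 6 arrays (columns, ICD left and WT right), in log2 units with red above and blue below the mean. The ICD 3 column is mostly blue and the ICD 2 column mostly red, and Slc4a1 has its highest value on WT 3.

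Other genes of renal acid-base transport were counted as background. Of 21 measured, 10 lay higher and 11 lower in ICD kidneys, with a median of -0.0043. None passed in limma, and 1 of the 21 had an unadjusted p under 0.05, beside 5.86% of all probe sets. This was Car15, a membrane carbonic anhydrase, which read 10.83, 10.71 and 10.59 in ICD kidneys, against 10.80, 10.95 and 11.01 in WT kidneys, a difference of -0.21 (interval -0.41 to -0.0052, adjusted p = 0.844). Car4, a membrane carbonic anhydrase of the proximal tubule, followed at -0.13 and Insrr at -0.11. Among the 18 genes of the list at or above the median level, the highest was Car14, another membrane form, at 0.33. Its interval was -0.12 to 0.78, with its lowest value of 9.94 on WT 3. Car12 at 0.15 and Slc12a7, a potassium-chloride cotransporter of type A cells, at 0.12 came next among these 18. Of 11 measured markers shared by both cell types 5 lay higher and 6 lower, with a median of -0.011. This list includes the members Foxi1, Atp6v1b1, Atp6v0a4, Atp6v0d2, Car2 and Rhcg, so it is not a separate background for them.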

How the data were processed

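Kidney RNA of 6 mice was measured on 1 array per animal. The authors' deposited table holds log2 values, and RMA (background correction, quantile normalization and median polish over the probes of a probe set) is the method named per the submitters' processing notes. Its version, the chip definition and any filter are not given in the sources used here. RMA removes a shift shared by most transcripts and compresses differences of dim probe sets.

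Of 45101 rows, 64 control rows were left out. Platform annotation gave 1 gene symbol for 34945 probe sets, and 0 symbols had to be updated through Entrez identifiers in RefSeq (GRCm38.p6). Genotypes were compared by limma's moderated test (version 3.58.1, R 4.3.3), 2-sided and with no term besides genotype. P-values were adjusted after Benjamini and Hochberg across 45037 probe sets, and the threshold was 0.05. Intervals are 95% confidence intervals of that fit. The small number of arrays and the variation between animals limit their precision. The fit was tested on simulated data. The probe set with the highest mean over the 6 arrays stood for a gene where 1 value was needed. Single contrasts between 2 genes were tested by an exact permutation test over the 20 assignments of 3 against 3 arrays, which cannot give a 2-sided p below 0.1.

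The members, the 13 other gene lists and the tests were chosen with earlier results of these data known, so no list was tested. Named genes were all members, the type A and type B markers, paralogs, blood markers, and the 3 highest and 3 lowest of each functional list at or above the median level. The alternatives were a replicate block, each array left out, a trended and robust prior, array weights, a repeated quantile normalization, centring on the median, a filter on dim probe sets and the average over a gene's probe sets. Replicate numbers were checked for pairing.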

Additional observations from a re-analysis of the deposited data

How the results depend on the processing

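No probe set of the 8 genes passed in limma under any of the alternatives run, the replicate block included (smallest adjusted p of a member under the block 0.879, 0 calls with and without it). Same-numbered arrays did not deviate together (correlations -0.028, -0.069 and -0.11), and no array correlated best with the array of its own number. The numbers are therefore not taken as pairs. Under the block the contrast of Slc4a1 and Slc26a4 was unchanged at -0.24 (exact p = 0.25, the smallest for 3 pairs), and without each array it ran from -0.30 to -0.15. Over all probe sets 1 call appeared with a trended and robust prior, and 0 to 1 in fits without 1 array, none of them a member. Among the 11 probe sets, directions turned only in fits without 1 array, where differences ran from -0.032 to 0.16 for Atp6v0a4, -0.056 to 0.14 for Atp6v1b1, -0.065 to 0.010 for Rhcg, -0.0031 to 0.098 for Slc26a4, -0.077 to 0.057 for Atp6v0d2 1444176_at and -0.069 to 0.077 for Slc4a1 1431743_a_at. The cause was not tested. The median of the 8 genes ran from -0.029 to 0.083 without 1 array. In such fits the list medians ran from -0.092 to -0.0028 for red cell markers (-0.10 with each gene's probe sets averaged), -0.12 to -0.047 for principal cells, 0.31 to 0.52 for podocytes, -0.19 to 0.063 for type A markers, -0.016 to 0.098 for type B markers, -0.032 to 0.057 for shared markers of both types, -0.0041 to 0.031 for other acid-base genes, -0.039 to -0.0051 for other pump genes, -0.062 to 0.22 for endothelium, -0.0053 to 0.13 for proximal tubule, -0.15 to -0.073 for thick ascending limb, -0.092 to 0.010 for distal convoluted tubule and -0.10 to -0.016 for urothelium. Members are part of the list of shared markers. Foxi1 ran from 0.014 to 0.17.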

Other observations

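Principal cells share the collecting duct with intercalated cells, and 11 of their 13 markers lay lower in ICD kidneys, with a median of -0.051, beside 0.029 for the 8 intercalated cell genes. No marker passed in limma over all probe sets, and 4 had an unadjusted p under 0.05, each lower in ICD kidneys, beside 2.26% of all probe sets with such a p and a lower level. Kcnj10, a potassium channel of the basolateral membrane of distal nephron cells, chosen after its values were seen, read 8.85, 8.89 and 8.82 in ICD kidneys, against 9.31, 9.22 and 9.35 in WT kidneys. All ICD arrays lay below all WT arrays, by -0.44 (interval -0.59 to -0.29, limma adjusted p = 0.337). The difference ran from -0.47 to -0.41 in fits without any 1 array, in which limma's adjusted p was 0.401 to 0.899.

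Among markers of other kidney cells no list had a member that passed in limma. All 7 measured podocyte markers lay higher in ICD kidneys (median 0.40). Of these 6 had an unadjusted p under 0.05, beside 3.61% of all probe sets in that direction, and 6 had groups that did not overlap, beside 10.5% of all probe sets. Also higher were 12 of 13 endothelial markers (median 0.092) and 11 of 15 proximal tubule markers (median 0.070), but without WT 3 these medians were -0.062 and -0.0053. Lower were 7 of 8 markers of the thick ascending limb (median -0.11), 9 of 11 of the urothelium (median -0.059) and 5 of 8 of the distal convoluted tubule (median -0.029). The last median was 0.0076 to 0.034 without ICD 2, without WT 2 or with each gene's probe sets averaged. An unadjusted p under 0.05 with a lower level was found for 1 of 8 thick ascending limb and 2 of 11 urothelial markers, beside 2.26% of all probe sets. With a higher level it was found for 1 of 15 proximal tubule markers. The groups did not overlap for 2 thick ascending limb, 1 urothelial and 1 proximal tubule marker, beside 10.5% of all probe sets.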
